A study of Mus musculus with 7 samples.

Results

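The mitochondrial carrier family was followed over 1 day in mouse liver. Members were taken as the probe sets (groups of array probes summarised as 1 value) that carry 1 gene symbol, where the symbol begins with Slc25a or is Ucp1, Ucp2 or Ucp3. Where a gene had several such probe sets, the one with the highest mean over the arrays was used. This gave 48 genes, from 52 probe sets, of 19938 genes with a probe set of 1 symbol. Ucp2 was not analysed here. The livers came from male C57/BL6 mice kept in 12 h of light and 12 h of dark and fed only between ZT12 and ZT24 for the last 7 days. The mice were 9 to 11 weeks old at the start of 2 weeks of housing with free access to food, and thus 12 to 14 weeks old when the livers were taken. ZT0 is lights on and ZT12 is lights off. Livers were taken every 4 h, first at ZT02, ZT06 and ZT10 in the light, then at ZT14, ZT18 and ZT22 in the dark, and last at ZT26, the clock time of the first array 1 day on. Each time point is 1 Mouse Gene 1.0 ST array, hybridised with 1 pool of RNA from 5 livers, so that no time point has a replicate array and the variation between mice was averaged out before measurement. The livers had been perfused and whole tissue was used, and every group shared the strain, sex, light cycle and feeding regimen, so that the effects of light, of clock time and of the meal cannot be told apart.

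Mitochondrial carriers are small proteins of the inner mitochondrial membrane that fold into a barrel of membrane helices and exchange or import metabolites, nucleotides, cofactors and protons. In hepatocytes they link the matrix to the cytosol. They export ATP, citrate and aspartate to the cytosol, bring in phosphate, acylcarnitines and ornithine, and carry iron and folate for heme and one-carbon metabolism. A minority of members sit elsewhere, such as the peroxisomal Slc25a17 and the outer-membrane Slc25a46.

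Promoter sequence from RefSeq (build GRCm38.p6, 250 bases before to 50 bases after an annotated start) was at hand for 38 members in 48 windows. The first pair of windows is shown because Slc25a47 and Slc25a30 had the widest daily swings described below. The Slc25a47 window lies on the plus strand at chr12:108850879-108851178 and the Slc25a30 window on the minus strand at chr14:75786988-75787287, each printed 5′ to 3′.
Slc25a47: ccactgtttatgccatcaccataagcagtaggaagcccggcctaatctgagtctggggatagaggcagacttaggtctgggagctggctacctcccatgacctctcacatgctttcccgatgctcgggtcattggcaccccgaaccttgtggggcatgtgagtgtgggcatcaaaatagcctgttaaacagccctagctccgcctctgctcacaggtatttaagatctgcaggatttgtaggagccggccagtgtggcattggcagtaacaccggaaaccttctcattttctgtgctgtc
Slc25a30: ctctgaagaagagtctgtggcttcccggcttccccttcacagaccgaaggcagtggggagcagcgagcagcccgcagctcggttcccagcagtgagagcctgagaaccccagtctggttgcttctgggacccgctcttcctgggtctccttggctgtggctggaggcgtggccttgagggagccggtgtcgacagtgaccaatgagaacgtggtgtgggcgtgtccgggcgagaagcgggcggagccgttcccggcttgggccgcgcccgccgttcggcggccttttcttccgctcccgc
Neither window held the E-box CACGTG, which clock activators bind, nor the D-box (searched as TTACATAA, TTACGTAA, TTATATAA and TTATGTAA), nor the RORE (searched as NTAGGTCA), on either strand. A missing match says only that these letters are not in the window.

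E-box letters were found in 8 of the 48 windows, from 7 of the 38 genes (Slc25a1, Slc25a13, Slc25a14, Slc25a15, Slc25a31, Slc25a33 and Slc25a36), beside 7.15% of all 32851 mouse promoter windows of this length. D-box and RORE letters were in 0 member windows, beside 1.59% and 2.59% of all windows. The E-box sites of the 5 such members above 85 units (the expression minimum explained below) are shown with 10 bases on each side, E-box in capitals, because none of these genes passed the test for a daily rhythm. All 5 lie on the minus strand, at chr16:17928443-17928468 for Slc25a1, chr6:6217283-6217308 for Slc25a13, chr8:22398339-22398364 for Slc25a15, chr4:149774260-149774285 for Slc25a33 and chr9:97111213-97111238 for Slc25a36.
Slc25a1: gctccagacgCACGTGtctctaaact
Slc25a13: cagtctgagtCACGTGtcctggcccc
Slc25a15: ccctgccgcaCACGTGccgcggctcc
Slc25a33: cggcctccgcCACGTGacggccgcgc
Slc25a36: cctgggcgatCACGTGaaagaggcgt
The E-box began 239, 125, 77, 8 and 187 bases before the annotated start, in the order printed. On the arrays Slc25a1 and Slc25a36 had an amplitude of 0.03, Slc25a13 of 0.15, Slc25a15 of 0.18 and Slc25a33 of 0.20 on the log2 scale. The match is a description of the sequence, and no window was available for Slc25a32, Slc25a44, Slc25a35, Slc25a37 or Slc25a51 in the table used.

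Signals are given in array units, the antilog of the deposited log2 values, and signals of different genes are not compared as amounts of mRNA because probes differ in brightness. A mean above 85 units was taken as expressed and a mean up to 43 units as background, the limits used in the study's methods. Of the 48 members, 35 (72.9%) exceeded a mean of 85 units, 8 (16.7%) lay between 43 and 85 units and 5 (10.4%) were at or below 43 units. The last member inside the limit was Slc25a27, a brain relative of the uncoupling proteins, at 88.3 units, and the first outside was Slc25a34, whose substrate is not settled, at 82.2 units. The other members below the limit were Slc25a43 (80.7 units), the basic amino acid carrier Slc25a29 (79.8), the calcium-regulated ATP-Mg carrier Slc25a24 (71.9), the glutamate carrier Slc25a18 (59.5), the ornithine carrier Slc25a2 (53.1), Slc25a41 (53.0) and Slc25a14 (48.3). At background were the uncoupling proteins Ucp3 (30.2 to 36.1 units over the arrays) and Ucp1 (mean 16.8), Slc25a53 (27.8), the testis ADP/ATP translocase Slc25a31 (16.7) and Slc25a54 (11.3). Ucp1, the heat-producing carrier of brown fat, stayed between 15.2 and 19.9 units on all 7 arrays, where Cidea, another brown fat gene, averaged 17.1 units. A further brown fat marker, Prdm16, averaged 71.5 units, above background and below the expression minimum.

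The largest daily swings in the family belonged to the liver-enriched carrier Slc25a47 and to the uncoupling-protein relative Slc25a30, both highest in the light phase, when these mice had no food. The mitochondrial folate carrier Slc25a32 was highest around the end of the light phase and Slc25a44, a carrier of branched-chain amino acids, in the middle of the night. These 4 of 35 members (11.4%) passed the test for a 24-h rhythm (a cosine fitted with limma, adjusted p under 0.05), where 4.47% of all 12076 probe sets tested did so. Of the 4, 3 peaked in the light (1.98% of all tested probe sets were called with a peak there) and 1 in the dark (2.49% of all tested). At an unadjusted p under 0.05 there were 19 of 35 members (54.3%), beside 25.7% of all tested probe sets. Because whole liver was measured, fewer cells of a type and less RNA per cell cannot be told apart in any of these profiles.

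Slc25a47, an orphan carrier made mainly in liver, measured 2421, 3966, 4327, 3200.0, 1662, 1975 and 2256 units on the 7 arrays in order of time, ZT02 first and ZT26 last. The ZT06 and ZT10 arrays stood highest and the ZT18 array lowest, 2.60-fold below ZT10. The fitted amplitude, the distance from mean to peak on the log2 scale, was 0.71 ± 0.08 (SE from the fit over 7 arrays), with a peak at ZT8.83 ± 0.369 h and an adjusted p of 0.0228 by limma. Of all tested probe sets, 99.0% had a smaller amplitude. Its call was kept without ZT18 or without ZT22, whereas without any other single array the adjusted p lay between 0.0655 (without ZT26) and 0.0766 (without ZT10), with values of 0.0732 without ZT02, 0.0675 without ZT06 and 0.0754 without ZT14. With 1 array left out, the amplitude lay between 0.62 and 0.82 and the peak between ZT8.58 and ZT9.36. Such fits called only 13 to 312 of all 12076 tested probe sets, where the main fit called 540.

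Slc25a30, the kidney mitochondrial carrier protein related to the uncoupling proteins, measured 715, 1178, 896, 614, 511, 568 and 788 units over the same times. The ZT06 array was highest, 2.31-fold above ZT18, and the signal at ZT26 was again above that at ZT22. The fit gave an amplitude of 0.56 ± 0.06 and a peak at ZT6.90 ± 0.397 h, with a limma adjusted p of 0.0247. The call was kept without ZT06 or without ZT22, and was lost without ZT02, ZT10, ZT14, ZT18 or ZT26 (adjusted p = 0.0633, 0.0610, 0.0835, 0.0675 and 0.0781). In these fits the amplitude lay between 0.47 and 0.60 and the peak between ZT6.57 and ZT7.13.

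Slc25a32, which brings folate into mitochondria, measured 307, 411, 635, 514, 355, 354 and 339.6 units from ZT02 to ZT26. ZT10 and ZT14 were the highest of the 7 arrays, and ZT10 was 2.07-fold above ZT02. The amplitude was 0.46 ± 0.08, the peak ZT11.2 ± 0.646 h and the limma adjusted p 0.0480, just within the threshold. The gene kept its call without ZT22 and lost it without each other array, where the adjusted p was 0.0733 without ZT18, 0.0855 without ZT06, 0.114 without ZT26, 0.125 without ZT02, 0.132 without ZT10 and 0.147 without ZT14. Amplitudes in these fits lay between 0.35 and 0.55 and peaks between ZT10.8 and ZT12.0.

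Slc25a44 measured 1120.4, 1139, 1274, 1501, 1768, 1447 and 1264 units from ZT02 to ZT26. The signal was higher on each array than on the one before up to ZT18 and lower after it, 1.58-fold between ZT18 and ZT02. The amplitude was 0.30 ± 0.04, with a peak at ZT17.4 ± 0.528 h and a limma adjusted p of 0.0343. No array could be left out without loss of the call, with adjusted p-values of 0.0833, 0.0903, 0.0806, 0.0962, 0.122, 0.0605 and 0.0804 without each array in turn, in order of time. The amplitude in these fits lay between 0.26 and 0.33 and the peak between ZT17.1 and ZT17.8. Loss of calls was not particular to these genes, since such fits called 13 to 312 of all tested probe sets, against 540. The 4 calls were also lost with no minimum on the mean, on the natural scale, with ZT02 and ZT26 averaged and in Fisher's test for one period, as detailed in the closing section.

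**Figure D1:**
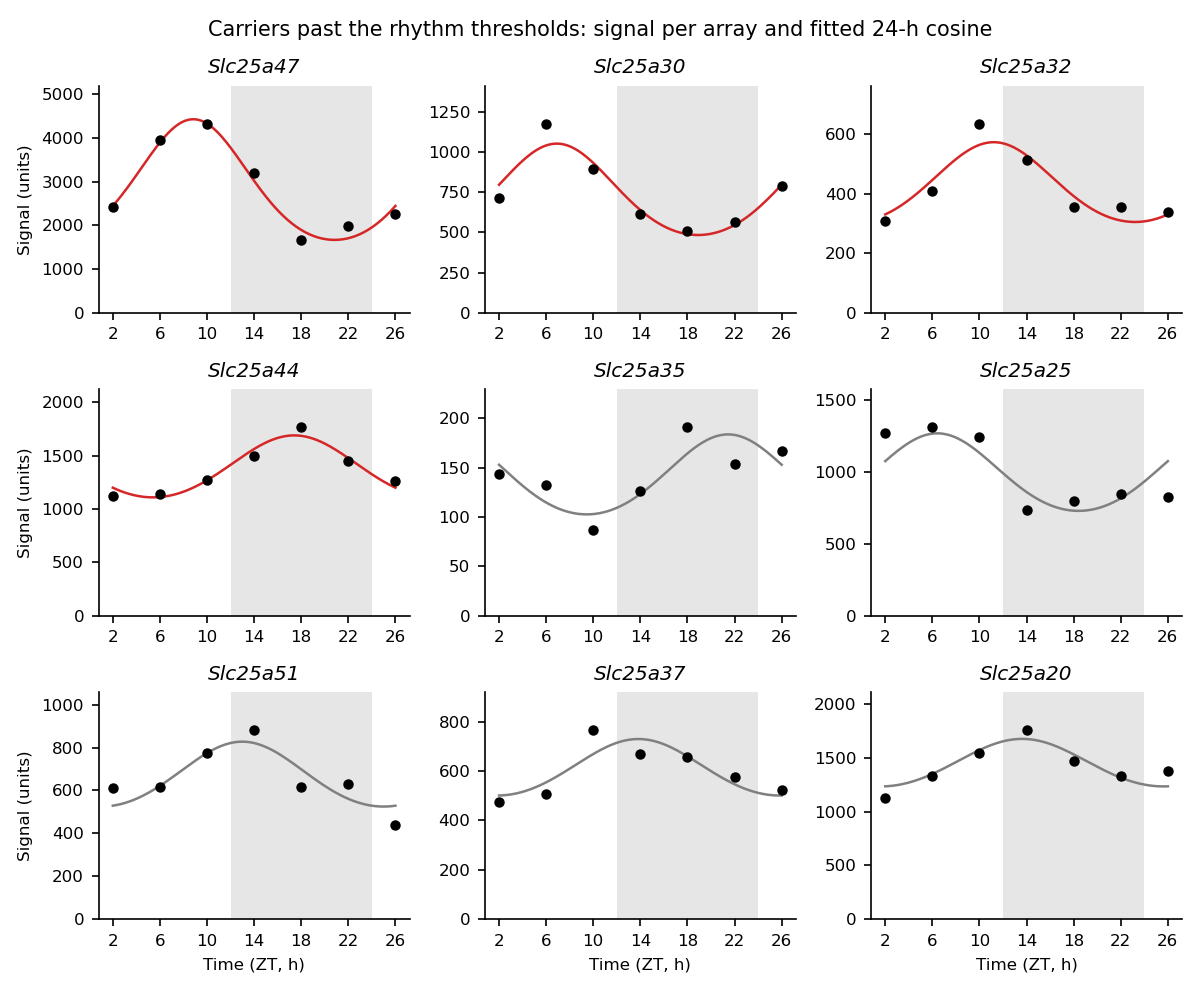
Array units against zeitgeber time (h) for the 9 members past the thresholds of the study's methods, 1 point for each array (a pool of 5 livers), with the 24-h cosine fitted on the log2 scale and the dark phase shaded. Slc25a47 and Slc25a30 are highest in the light, at 4327 units on ZT10 and 1178 units on ZT06, and Slc25a44 in the dark, at 1768 units on ZT18.

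A looser count used the thresholds that the study's methods state for mRNA, a Fisher p under 0.25, a fold change above 1.5 and a mean above 85 units, with no adjustment for multiple tests. The fold change was taken here as highest over lowest array, and the study's further requirement on RNA polymerase II signal was not applied. It was met by 9 of 35 members (25.7%), beside 13.6% of all tested probe sets. The 5 members added to the 4 called were Slc25a20, Slc25a25, Slc25a35, Slc25a37 and Slc25a51, none of which passed the adjusted test. With the fitted peak over trough as the fold change, 7 members met the thresholds, and Slc25a20 and Slc25a37 did not.

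Slc25a20 exchanges acylcarnitines for carnitine across the inner membrane, a step of fatty acid oxidation. It measured 1126, 1333, 1544, 1759, 1469.7, 1329.5 and 1383 units from ZT02 to ZT26, highest at ZT14 and lowest at ZT02 (1.56-fold). The fitted peak was at ZT13.6 with an amplitude of 0.22 ± 0.05 (limma adjusted p = 0.102).

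Slc25a25, a calcium-regulated carrier of ATP-Mg and phosphate, measured 1268, 1311, 1238, 737, 799, 845 and 824 units. Its signal lay in 2 levels, with the first 3 arrays above all of the last 4, so that ZT26 stood with the night arrays and not with ZT02. The amplitude was 0.40 ± 0.12, the fitted peak ZT6.42 and the limma adjusted p 0.178.

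Slc25a35, whose substrate is not settled, measured 144, 133, 86.7, 126, 191, 153 and 167 units. The ZT10 value was 2.20-fold below that of ZT18 and close to the expression minimum. The amplitude was 0.42 ± 0.11 with a fitted peak at ZT21.5 (limma adjusted p = 0.136), and it was 0.26 without the ZT10 array and 0.55 without the ZT22 array. The summed signal of 9 Kupffer cell markers, the macrophages of the liver, was also lowest on ZT10, at 4243 units, and was highest on ZT26, at 6692 units. Of the 8 such markers above 85 units, 5 were called rhythmic, beside 4.47% of all tested probe sets. A low on ZT10 was not particular to them, since the hepatocyte, endothelial, stellate cell and lymphocyte marker sums were also lowest there. Whether any of these cell types had a part in the Slc25a35 profile was not tested.

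Slc25a37 is mitoferrin-1, an importer of iron for heme and iron-sulphur clusters. It measured 476, 507, 765, 667, 657, 574 and 524 units, highest at ZT10 and lowest at ZT02 (1.61-fold), with an amplitude of 0.27 ± 0.06 and a fitted peak at ZT13.8 (limma adjusted p = 0.0983). The gene is also strongly used by red cell precursors. The summed signal of the 2 red cell markers with a probe set lay between 1373 units (ZT18) and 1769 units (ZT02). Of these, Slc4a1 (mean 75.1 units) was below the expression minimum, so the sum is mostly Alas2. Alas2 (mean 1461 units) was not called (limma adjusted p = 0.184). The part of red cell precursors in the Slc25a37 profile was not tested.

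Slc25a51, described in human cells as the mitochondrial NAD+ transporter, measured 610.0, 615, 774, 881, 616, 629 and 439 units. It was highest at ZT14, while ZT26 was below every other array, 2.01-fold under ZT14. The amplitude was 0.33 ± 0.09 with a fitted peak at ZT13.0 (limma adjusted p = 0.140). Without ZT26 the amplitude was 0.24.

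Among the carriers of adenine nucleotides and phosphate, 6 of 10 exceeded 85 units and 0 were called, with 1 at an unadjusted p under 0.05 (Slc25a25) and a median amplitude of 0.04. Over all tested probe sets 4.47% were called and 25.7% had an unadjusted p under 0.05, and no role group was tested against these shares. The group includes the carriers that serve ATP synthesis. Slc25a5, an ADP/ATP translocase, measured 6697, 6726, 6989.6, 7486, 7046, 7088 and 6907 units from ZT02 to ZT26, a 1.12-fold range (amplitude 0.06, limma adjusted p = 0.408). The phosphate carrier Slc25a3 measured 5117, 4993, 5117, 5324, 5094, 5083 and 5126 units, a 1.07-fold range (amplitude 0.02, limma adjusted p = 0.855). These were the members with the brightest probe sets, and both were highest on ZT14. For Slc25a5 a further 2 probe sets (means 6685 and 5321 units) had amplitudes of 0.06 and 0.05. ADP/ATP translocase genes have many near-identical copies in the genome, which the array's probes may not separate. Slc25a4, the translocase of heart and muscle, ranged over 1.13-fold, the ATP-Mg carrier Slc25a23 over 1.08-fold, and the peroxisomal carrier Slc25a17 lay between 1879 and 2062 units.

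In the uncoupling group, Slc25a30 and Slc25a27 were the only members above 85 units of 5 with a probe set. Slc25a27 was level, between 84.4 and 91.8 units. Of the di- and tricarboxylate carriers, 5 of 6 exceeded 85 units. Of these, 0 were called (4.47% of all tested probe sets were) and 3 had an unadjusted p under 0.05 (25.7% of all tested). The dicarboxylate carrier Slc25a10 lay between 2145 (ZT02) and 2980.0 units (ZT10), and the oxoglutarate-malate carrier Slc25a11, of the malate-aspartate shuttle, between 1822 (ZT02) and 2532 units (ZT14). Both had an amplitude of 0.16, with limma adjusted p-values of 0.174 and 0.193. The citrate carrier Slc25a1, which supplies carbon for fatty acid synthesis, ranged over 1.08-fold (amplitude 0.03, adjusted p = 0.765).

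Among the 13 carriers grouped under amino acids and carnitine, 10 exceeded 85 units and 2 (Slc25a47 and Slc25a44) were called, beside 4.47% of all tested probe sets. The grouping of Slc25a47 there is a convenience, since its substrate is not settled. Slc25a15, the ornithine carrier of the urea cycle, was highest at ZT02 (3439 units) and lowest at ZT10 (2369 units), with a fitted peak at ZT22.7 (amplitude 0.18, limma adjusted p = 0.209). The aspartate-glutamate carrier of liver, Slc25a13, was highest at ZT10 (3099.5 units) and lowest at ZT22 (2480.2 units), with a fitted peak at ZT11.6 (amplitude 0.15, adjusted p = 0.105), whereas its relative Slc25a12 ranged over 1.11-fold. The glutamate carrier Slc25a22 had a fitted peak at ZT6.48 and the glycine carrier Slc25a38 at ZT16.5, both with an amplitude of 0.17 (adjusted p = 0.103 and 0.171). Slc25a45 lay between 592 units (ZT10) and 873 units (ZT18), a 1.47-fold range (adjusted p = 0.211), and Slc25a48 ranged over 1.11-fold.

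All 11 carriers of iron, cofactors, nucleotides and glutathione exceeded 85 units, with a median amplitude of 0.19. Of these, 1 (Slc25a32) was called and 7 had an unadjusted p under 0.05, beside 4.47% and 25.7% of all tested probe sets. The S-adenosylmethionine carrier Slc25a26 came next to the threshold, with 172, 212, 182, 165, 148, 158 and 175 units, an amplitude of 0.22, a fitted peak at ZT6.92 and a limma adjusted p of 0.0594. The glutathione carrier Slc25a39, which had the third brightest probe set of the family, measured 3645, 3664, 3970.4, 4018, 4176, 4121 and 3938 units, a 1.15-fold range (amplitude 0.09, adjusted p = 0.275), and its relative Slc25a40 ranged over 1.38-fold with a fitted peak at ZT4.87 (adjusted p = 0.101). A further Slc25a40 probe set, below 85 units (mean 62.4), ranged over 1.13-fold and was highest at ZT14. Mitoferrin-2, Slc25a28, ranged over 1.32-fold with a fitted peak at ZT9.74 (adjusted p = 0.185), before the peak fitted for Slc25a37. Of the carriers linked to coenzyme A, Slc25a16 had a fitted peak at ZT13.2 (adjusted p = 0.134) and Slc25a42 at ZT4.46 (adjusted p = 0.333). The pyrimidine nucleotide carriers Slc25a33 and Slc25a36 ranged over 1.48-fold and 1.21-fold (adjusted p = 0.243 and 0.913). For Slc25a36 the fitted peak was at ZT20.4, while a further probe set ranged over 1.34-fold with a fitted peak at ZT2.77 (limma adjusted p = 0.757). Outside these groups only Slc25a46, an outer-membrane protein that shapes mitochondria, exceeded 85 units. It measured 1108, 1354, 1269.7, 1137, 951, 1137 and 1128 units, highest at ZT06 and lowest at ZT18 (amplitude 0.20 ± 0.05, fitted peak ZT7.43, limma adjusted p = 0.137).

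**Figure D2:**
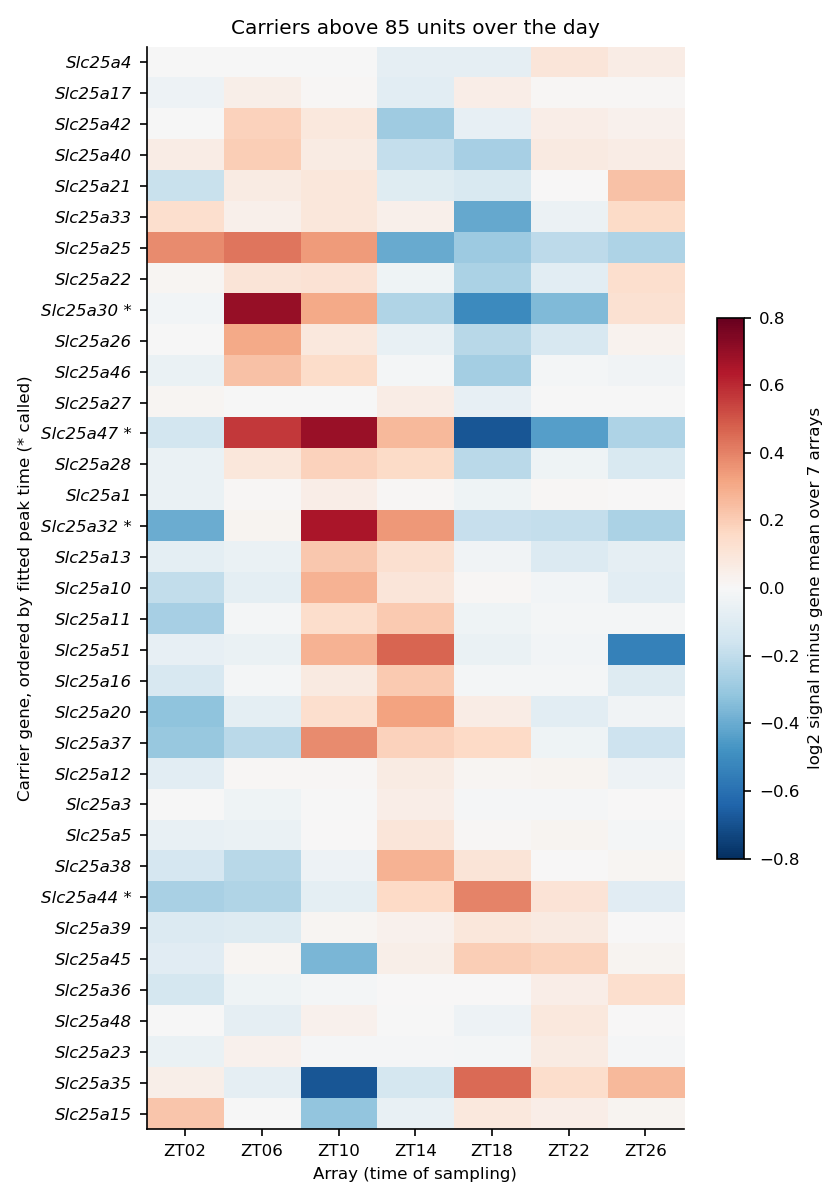
Log2 signal of the 35 members above 85 units on each of the 7 arrays, as the difference from the member's own mean over the arrays, with members down the page in order of fitted peak time, arrays across in order of time and called members starred. The adenine nucleotide and phosphate carriers vary little apart from Slc25a25, and Slc25a47 shows the widest swing, between 4327 units on ZT10 and 1662 units on ZT18.

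Over the 35 members the median amplitude was 0.17 (quartiles 0.06 and 0.22), and over all 12076 tested probe sets it was 0.09 (quartiles 0.05 and 0.17). The median ratio of highest to lowest array was 1.39 for the members and 1.24 for all tested probe sets. The standard error of the fitted peak time had a median of 1.19 h and was largest for Slc25a23, whose profile was level (amplitude 0.01), so that peak times of members with small amplitudes carry little information.

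By fitted peak, 18 of 35 members (51.4%) peaked in the dark, beside 51.2% of all tested probe sets. In 4-h bins, 2 members peaked between ZT0 and ZT4, 9 between ZT4 and ZT8, 6 between ZT8 and ZT12, 9 between ZT12 and ZT16, 3 between ZT16 and ZT20 and 6 between ZT20 and ZT24, where all tested probe sets had 15.8%, 17%, 16%, 18.6%, 15.8% and 16.7%. Of the 19 members with an unadjusted p under 0.05, 0 peaked between ZT0 and ZT4, 6 between ZT4 and ZT8 and 4 between ZT8 and ZT12. A further 6 peaked between ZT12 and ZT16, 2 between ZT16 and ZT20 and 1 between ZT20 and ZT24. The matching shares of all tested probe sets at this p were not computed, so no timing particular to the family can be read from these counts. By single arrays, 9 members were highest on ZT14 (18.4% of all tested probe sets were), 7 on ZT10 (17.9%), 6 on ZT06 (13.4%), 5 on ZT18 (13.3%), 4 on ZT26 (19.2%), 3 on ZT22 (8.6%) and 1 on ZT02 (9.06%).

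**Figure D3:**
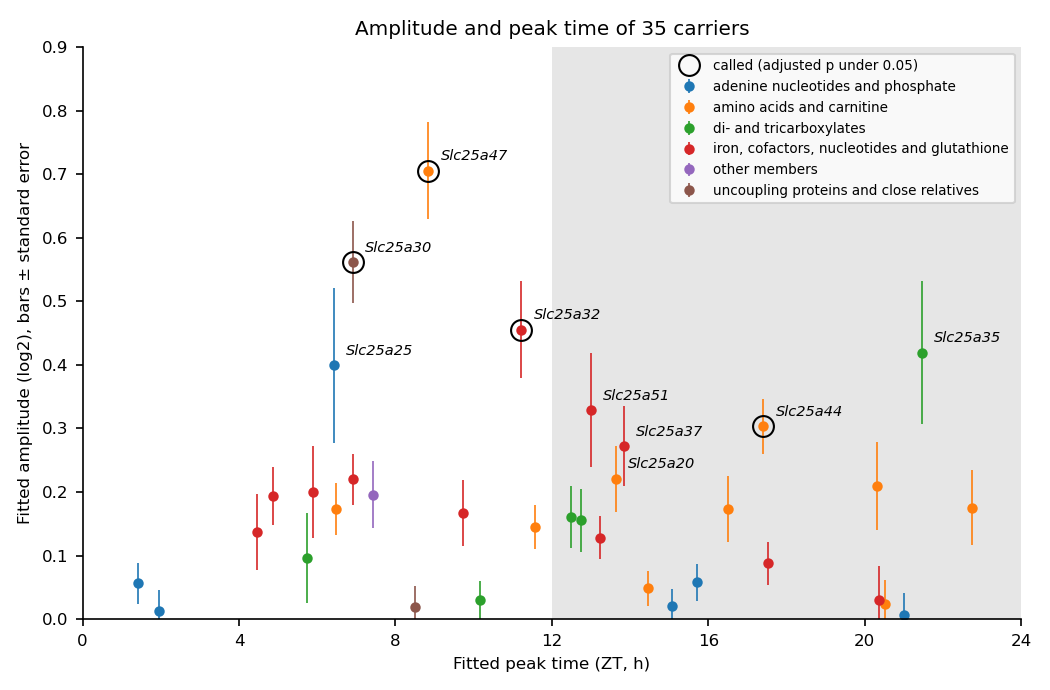
Fitted amplitude (log2, mean to peak) against fitted peak time (h) for the 35 members above 85 units, coloured by role group, with bars of 1 SE of the amplitude, called members ringed and the dark phase shaded. The 4 called members lie at amplitudes between 0.30 and 0.71, 3 in the light and 1 in the dark.

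Since ZT26 and ZT02 fall at the same clock time, the pair gives the nearest measure of how far pools differ when the hour does not. The absolute difference had a median of 0.10 on the log2 scale for the members and 0.09 for all tested probe sets. Beyond 1.2-fold were 5 of 35 members (14.3%), beside 10.3% of all tested probe sets. Slc25a25 had 824 units at ZT26, against 1268 units at ZT02 (ratio 0.650), and Slc25a51 had 439 units at ZT26, against 610.0 units at ZT02 (ratio 0.719). The oxodicarboxylate carrier Slc25a21 had 437 units at ZT26 and 329 units at ZT02 (ratio 1.33), Slc25a20 had 1383 units at ZT26 and 1126 units at ZT02 (ratio 1.23) and Slc25a36 had 129.8 units at ZT26 and 107 units at ZT02 (ratio 1.21). A further Slc25a36 probe set (mean 91.2 units) had 99.8 units at ZT26 and 92.6 units at ZT02, a log2 difference of 0.11. All of these values are of single pools, so that the ratios have no replicate check. In 21 of 35 members the fitted amplitude was larger than this difference, the 4 called members included, with differences of -0.10 for Slc25a47, 0.14 for Slc25a30, 0.14 for Slc25a32 and 0.17 for Slc25a44. The fit gives ZT02 and ZT26 the same value, so this difference is part of the residual spread in the test. A small difference in the called members is thus no separate check of the calls. The same count over all tested probe sets was not made.

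The ZT02 array was the lowest for 14 of 35 members (40%) and for 21.1% of all tested probe sets, and 28 of 35 members (80%) were higher at ZT26 than at ZT02, as were 63.2% of all tested probe sets. The medians of the arrays over the tested probe sets ran from 8.31 (ZT02) to 8.40 (ZT26) on the log2 scale. After each array was centred on that median, ZT02 was lowest for 6 members (17.1%, beside 11.1% of all tested) and 14 members (40%, beside 37.3%) were higher at ZT26. Both counts therefore moved with the scaling of the arrays.

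**Figure D4:**
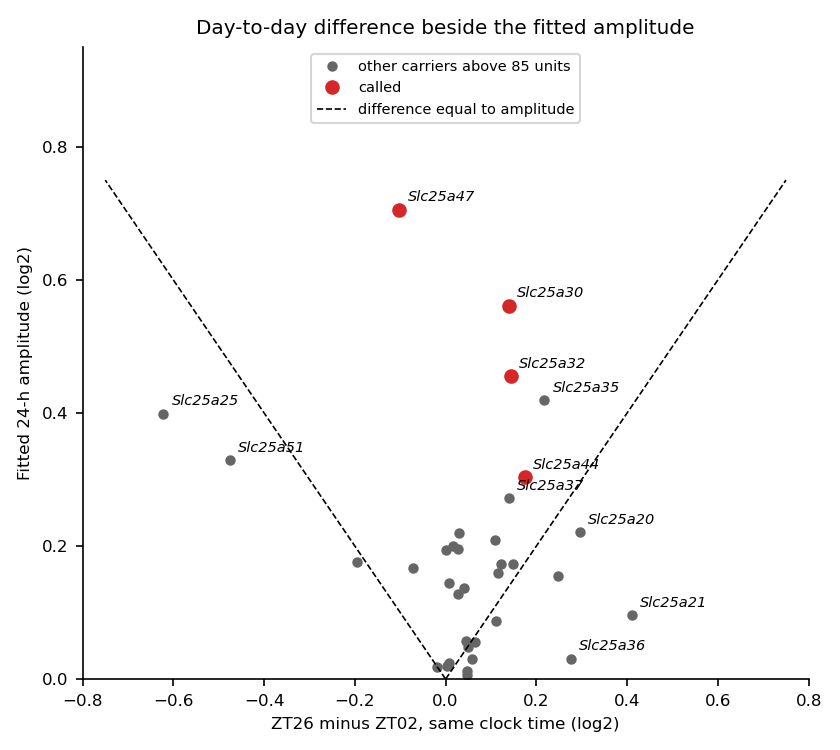
Fitted amplitude (log2) against the ZT26 minus ZT02 difference (log2, 1 array each) for the 35 members above 85 units, called members in red, with dashed lines where the size of the difference equals the amplitude. The 21 members between the lines include all 4 called members, while Slc25a25 and Slc25a51, with differences of -0.62 and -0.48, are not among them. The difference is part of the residual spread in the fit, so the figure is no separate check of the calls.

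Genes that work beside the carriers were followed in the same fit. Of 60 genes in 8 lists, 55 had a probe set of 1 symbol, all above 85 units, and 7 were called, where 4.47% of all tested probe sets were. In the carnitine system 3 of 7 were called, namely Cpt1a, the rate-limiting enzyme of mitochondrial fatty acid entry, with a peak at ZT10.1 (adjusted p = 0.0407), the plasma membrane carnitine transporter Slc22a5 at ZT13.1 (adjusted p = 0.0455) and the peroxisomal carnitine octanoyltransferase Crot at ZT2.96 (adjusted p = 0.0110). Beside them, Slc25a20 had its fitted peak at ZT13.6 without passing the test. Cpt1a measured 3409, 4143, 5389.8, 5018, 3117, 3077 and 3684 units from ZT02 to ZT26, with its highest arrays, ZT10 and ZT14, matching those of Slc25a20. The uncalled genes of this list differed in timing. Crat had its fitted peak at ZT19.5 (limma adjusted p = 0.0539). Cpt2 had its fitted peak at ZT18.9 and its lowest array at ZT10 (limma adjusted p = 0.492). Acadl and Acadm had fitted peaks at ZT12.0 and ZT11.1 (limma adjusted p = 0.315 and 0.328).

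For iron and heme, 1 of 6 genes was called and 3 had an unadjusted p under 0.05, beside 4.47% and 25.7% of all tested probe sets. Alas1, the rate-limiting enzyme of heme synthesis in liver, measured 1652, 2348, 7059, 7253, 4257, 2918 and 1648 units (amplitude 1.09 ± 0.11, fitted peak ZT13.6, limma adjusted p = 0.0186). The fitted peak of Slc25a37 was at ZT13.8, on a swing of 1.61-fold where that of Alas1 was 4.40-fold. The other genes of this list at an unadjusted p under 0.05 had earlier fitted peaks, Fech at ZT10.2 and Ppox at ZT3.34 (limma adjusted p = 0.0565 and 0.114). Cpox, Iscu and Nfs1 had fitted peaks at ZT19.0, ZT17.3 and ZT0.49 (limma adjusted p = 0.281, 0.998 and 0.778). In the S-adenosylmethionine and folate list 0 of 6 genes were called (2 at an unadjusted p under 0.05, beside 25.7% of all tested probe sets). Mthfd1l, an enzyme of mitochondrial folate metabolism, was highest at ZT10 (147 units) and had its fitted peak at ZT11.3 (adjusted p = 0.0852), and Slc25a32 was also highest at ZT10. The other gene at an unadjusted p under 0.05, the cytosolic folate enzyme Mthfd1, was lowest at ZT14 (2058 units) with a fitted peak at ZT2.24 (adjusted p = 0.113), and the fitted peaks of Mthfd2 and Shmt2, both mitochondrial, were at ZT4.13 and ZT20.4 (adjusted p = 0.372 and 0.881).

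The malate-aspartate shuttle enzymes (0 of 4 called), the citrate export and NADPH list (0 of 4) and the urea cycle enzymes (0 of 5) held no called gene. At an unadjusted p under 0.05 they held 0, 2 and 2 genes, beside 25.7% of all tested probe sets. Among 15 other mitochondrial channels and transporters 1 was called and 3 had an unadjusted p under 0.05, beside 4.47% and 25.7% of all tested probe sets. The called gene was the calcium uniporter Mcu, with a peak at ZT2.03 (adjusted p = 0.0310). Of 8 regulators of mitochondrial genes 2 were called and 4 had an unadjusted p under 0.05, beside the same shares. Those called were Ppara, the fatty acid receptor that drives the fasting programme, with a peak at ZT10.5 (adjusted p = 0.0134), and Ppard at ZT22.4 (adjusted p = 0.0424). Ppara measured 1870.2, 2632, 3432, 2727, 2085, 1793 and 1969 units from ZT02 to ZT26. Its highest array was ZT10, as it was for Slc25a47, for Slc25a32 and for 17.9% of all tested probe sets.

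Some members lie next to each other in the genome by the RefSeq gene order, and their profiles were set side by side. Slc25a47 had a 2.60-fold range, whereas its neighbour Slc25a29, on chromosome 12 and below 85 units, had a range of 1.12-fold. Slc25a23 and Slc25a41 on chromosome 17 had ranges of 1.08-fold and 1.09-fold, Slc25a5 and Slc25a43 on chromosome X 1.12-fold and 1.06-fold, and Slc25a24 and Slc25a54 on chromosome 3 1.46-fold and 1.07-fold. In each pair the first-named gene had the brighter probe set, and the second-named gene was below 85 units.

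The arrays resembled each other, with a mean correlation with the other arrays between 0.994 and 0.996. It was taken across the 21789 probe sets with 1 symbol, which are not independent replicates. The tissue label was checked against its markers, and 6 hepatocyte genes summed to between 84146 and 87215 units with 0 called by limma (0 at an unadjusted p under 0.05). Brown fat markers summed to 103 to 110.2 units, skeletal muscle markers to 239 to 279 units and lymphocyte markers to 183 to 250.4 units, while endothelial markers lay between 4300 (ZT10) and 5549 units (ZT22) and stellate cell markers between 1858 (ZT10) and 2172 units (ZT22). The brown fat sum is mostly Prdm16 (mean 71.5 units) and includes the family member Ucp1. Of the 35 members, 13 (37.1%) had at least 2 arrays with exactly the same value, as did 47.8% of all tested probe sets, and how such ties arose is not given in the sources used here.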

How the data were processed

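The authors hybridised 1 RNA pool (500 ng from each of 5 livers) for each time point to an Affymetrix array and deposited log2 values normalised with RMA in Affymetrix Expression Console 1.1.2637.26569, as the submitters' processing notes name them. Of 35556 probe sets, 21789 carried 1 gene symbol in the platform annotation, 1621 several and 12146 none, and only the first were used. Units are the antilog of the deposited log2 values. A cosine and sine of 24 h were fitted with limma 3.58.1 (R 4.3.3) to all probe sets with a mean above 85 units, with a moderated F-test on 4 residual degrees of freedom and Benjamini-Hochberg adjustment over 12076 probe sets. Standard errors describe scatter of pools about the cosine, with each probe set's variance moderated by limma towards a prior over all tested probe sets. The precision is limited by the number of arrays, 1 for each time point. The fitting was tested on simulated data. The members and lists were chosen with earlier results of these data known. Arrays were given in full for members called, members past the methods' thresholds, the 3 brightest and the largest amplitude of each role group. Alternatives were the minimum on the mean, the variance prior, the scale, the normalisation, averaging ZT02 with ZT26, Fisher's test and leaving out each array.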

Additional observations from a re-analysis of the deposited data

Results flagged for a closer look

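In 2 of 35 members above 85 units (5.71%), 1 array stood apart from the other 6, by a gap to the nearest array, as a share of the whole range on the log2 scale, above Dixon's critical value. Chance gives about 5% of groups, and 16.4% of all tested probe sets met the same limit. Slc25a3, the phosphate carrier, was high on ZT14, with 5324 units against 4993 to 5126 units on the other arrays (gap over range 0.592). Slc25a33, a pyrimidine nucleotide carrier, was low on ZT18, with 158 units against 203 to 233 units on the other arrays (gap over range 0.647). Each array is 1 pool and these arrays also differ in time of day, so that a pool and its hour cannot be told apart.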

How the results depend on the processing

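The 4 calls became 3 with a minimum of 43 units (Slc25a32 was lost, adjusted p = 0.0670), 4 with an intensity trend in or a robust form of the variance prior, and 5, with Slc25a26 added, with a minimum of 170 units, with arrays centred on their median and with quantile normalisation. Over the whole series, 321 of 15696 probe sets were called with the 43-unit minimum and 703 of 8993 with the 170-unit minimum. Of 12076 probe sets, 657 were called with the trend and 522 with the robust prior. Centring called 950 and quantile normalisation 790, where the main fit called 540. The 4 calls became 0 with no minimum on the mean (19 members at an unadjusted p under 0.05), 0 on the natural scale (15), 0 with ZT02 and ZT26 averaged (16) and 0 with Fisher's test for one period and Benjamini-Hochberg adjustment (10), where 57, 68, 93 and 0 of all probe sets were called. The cause was not tested. Leaving out 1 array gave 0 to 3 called members (0 without ZT02, ZT10, ZT14 or ZT26, 1 without ZT06 or ZT18, 3 without ZT22), a median amplitude of 0.14 to 0.19, 15 to 23 members with a peak in the dark and 7 to 9 past the methods' thresholds. Calls fell over the whole series in the same fits. Of 12076 probe sets, 13, 170, 102, 34, 189, 312 and 83 were called, in order of the array left out. The count of members past the methods' thresholds was 7 with the fitted peak over trough in place of the highest over lowest array. Members counted as expressed numbered 43 above 43 units, 30 above 170 units, 35 by the mean on the log2 scale and 34 with all probe sets of each gene required above the limit. Centring the arrays, an alternative chosen after seeing the data, took members lowest on ZT02 to 6, against 14 as deposited, and members higher at ZT26 than at ZT02 to 14, against 28. Dark peaks numbered 18 of 35 members as reported, 17 with ZT02 and ZT26 averaged, without ZT02 or without ZT06, and 15 without ZT22, so that the majority between dark and light rests on the setting. No paired analysis was possible because each time point has 1 array and the labels carry no replicate numbers. Signals near 85 units, such as those of Slc25a35 and Slc25a27, lie close to background, and small swings there could not be measured.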
